A study of Mus musculus with 6 samples.

Results

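The mast cell genes described here are 10 granule proteases and markers, Cpa3, Cma1, Mcpt4, Mcpt8, Tpsb2, Tpsab1, Ms4a2, Fcer1a, Hdc and Kit, out of 22180 genes measured. They were taken by name, each through the probe set that the platform annotation gives that single symbol, and each of the 10 had exactly 1 such probe set. RNA from mammary tumours of 6 mice was hybridised to Affymetrix whole-transcript arrays, 1 tumour per array. Of these, 3 tumours were PyMT+ SG-/-, lacking both copies of the serglycin gene Srgn, and 3 were PyMT+ SG+/-, with 1 copy left. All mice carried PyMT, the polyoma virus middle T oncogene that drives mammary tumours, so no tumour came from a mouse with both Srgn copies and no normal mammary gland is in the comparison. Replicate numbers were given here in the order of deposit within each genotype and pair no tumours across genotypes. SG-/- replicates 1 to 3 are the tumours the labels number 30, 31 and 38, and SG+/- replicates 1 to 3 are those numbered 37, 32 and 39. The sources used here do not give the promoter of the transgene, the strain or the age of the mice.

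Mast cells are tissue-resident immune cells that store histamine and proteases in secretory granules and release them when IgE on their surface is cross-linked. Serglycin is the proteoglycan core of these granules: its heparin and chondroitin sulfate chains are acidic and bind the basic proteases and histamine. In mice without serglycin, mast cells are known to fail to store several of these proteases as protein, and the comparison of genotypes asks what happens to the messenger RNAs in the tumour. In a bulk tumour sample, fewer mast cells and less RNA per mast cell cannot be told apart.

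Tumour RNA gave no signal above silent genes for most of these mast cell genes, in either genotype. The level of a silent gene was read from 1394 genes for olfactory and vomeronasal receptors, which were assumed to be off in a tumour, and a value was called above the silent level when it passed the 95th percentile of those genes on the same array. Of the 10 genes, only Kit was above that level in every tumour, while 31.2% of all genes were. Of the 54 values of the other 9 genes, 1 was above it, that of Cpa3 in SG-/- replicate 1, and 30 lay under the median of the silent genes. Probe sets differ in how brightly they respond, so a place among the silent genes is a description of the probe set's reading and not an amount of RNA. The label of a mast cell set thus rests on the known roles of the genes. Of the defining genes, the IgE receptor chains Fcer1a and Ms4a2 and every protease but Cpa3 read below the silent level in all 6 tumours, which does not show that mast cells were missing.

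**Figure D1:**
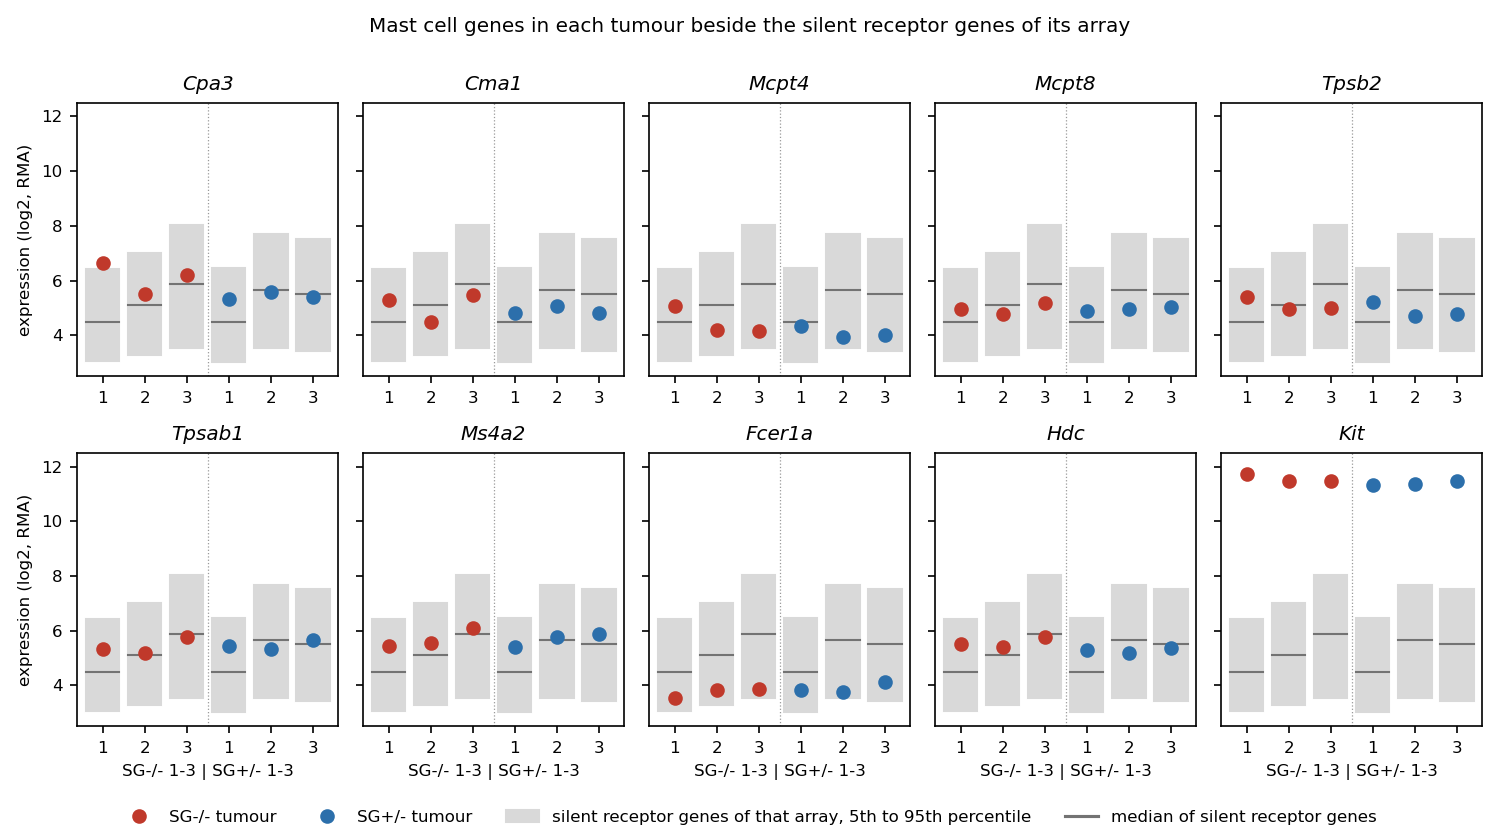
Expression on the log2 scale (vertical axis) of each of the 10 genes in SG-/- replicates 1 to 3 (left, red) and SG+/- replicates 1 to 3 (right, blue). Grey boxes span the 5th to 95th percentile of the 1394 silent receptor genes of that array, with their median as a line. Kit stands far above the boxes, and among the other genes only the first Cpa3 point is above its box.

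Promoter windows are shown for 3 of the genes, because Kit was the member above the silent level, Cpa3 had the largest difference between genotypes, and Ms4a2 held the most matches to the GATA motif that the mast cell regulator GATA2 binds. RefSeq (GRCm38.p6) gave a window for 8 of the 10 genes, from 250 bases before to 50 after the start. Capitals mark each AGATAA or TGATAA on either strand, so that a match on the opposite strand is printed as TTATCT or TTATCA. The windows are Cpa3 at chr3:20242132-20242431, minus strand, Ms4a2 at chr19:11623670-11623969, minus strand, and Kit at chr5:75574737-75575036, plus strand.
Cpa3: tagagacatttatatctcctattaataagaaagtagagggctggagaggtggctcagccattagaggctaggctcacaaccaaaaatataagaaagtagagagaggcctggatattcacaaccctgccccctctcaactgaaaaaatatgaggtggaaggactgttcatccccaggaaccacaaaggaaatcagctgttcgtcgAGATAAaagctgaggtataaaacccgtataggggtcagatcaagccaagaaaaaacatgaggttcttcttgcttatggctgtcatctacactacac
Ms4a2: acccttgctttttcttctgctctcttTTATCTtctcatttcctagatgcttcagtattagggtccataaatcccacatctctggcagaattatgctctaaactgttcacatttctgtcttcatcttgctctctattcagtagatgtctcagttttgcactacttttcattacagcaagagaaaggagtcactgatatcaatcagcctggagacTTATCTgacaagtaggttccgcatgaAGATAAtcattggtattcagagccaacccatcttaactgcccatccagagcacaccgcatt
Kit: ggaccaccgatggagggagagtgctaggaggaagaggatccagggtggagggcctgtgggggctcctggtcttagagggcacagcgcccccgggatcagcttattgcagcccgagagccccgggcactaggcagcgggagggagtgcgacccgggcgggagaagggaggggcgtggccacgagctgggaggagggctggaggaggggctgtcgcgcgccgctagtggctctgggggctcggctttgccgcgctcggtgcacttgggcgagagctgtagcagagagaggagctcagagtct
The Cpa3 window held 1 match, the Ms4a2 window 3 and the Kit window 0. Of the 8 windows, 4 held at least 1 match (Cpa3, Mcpt4, Ms4a2 and Fcer1a), against 19.0% of 27025 RefSeq promoter windows of the same length. The Kit window was rich in CpG dinucleotides, with 20 CpGs and a GC content of 69.0%. The other 7 windows held 0 to 3 CpGs each, where the median of all windows was 7. A match is a description of letters, not of a bound site. Gata2 itself, the transcription factor, was above the silent level in 1 of 6 tumours and read 6.36 ± 0.15 in SG-/- tumours, against 6.08 ± 0.34 in SG+/- tumours (SD, n = 3 per genotype).

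The targeted gene followed the genotype labels, although where its probe set lies relative to the removed part of the gene is not known here. Srgn read 5.07, 5.04 and 4.89 in SG-/- tumours, against 6.76, 6.43 and 6.35 in SG+/- tumours. Only the reading of SG+/- replicate 1 was above the silent level, at percentile 96.8 of the silent genes of its array. SG+/- replicates 2 and 3 lay at 72.4 and 73.3, and SG-/- replicates 1 to 3 at 68.7, 47.0 and 26.0. The groups did not overlap, and the genotypes differed by -1.52 on the log2 scale with a standard error of 0.15. By limma with Benjamini-Hochberg adjustment over all genes, the adjusted p was 0.467, the smallest of any gene. The arrays also differed in their silent level. The silent genes averaged 4.57, 5.13 and 5.86 in the 3 SG-/- arrays in replicate order, against 4.58, 5.62 and 5.49 in the SG+/- arrays, so this level overlapped between genotypes but was highest in SG-/- replicate 3. Nothing in the labels says more about how the tumours of a group relate to each other. The limma p-values set each difference against the spread between these samples, moderated over all genes.

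No member passed the test between genotypes, and the estimates ran from -0.15 for Fcer1a to 0.69 for Cpa3. Limma called 0% of all 22180 genes and 0 of the 10 members at an adjusted p of 0.05. With an unadjusted p under 0.05, 1 member was higher in SG-/- tumours (Cpa3) and 0 were lower, where 1.43% of all genes were higher and 0.685% lower (317 and 152 genes). With arrays centred on brighter genes 0 members had such a p, against 497 genes higher and 136 lower. With array weights the 1 member under 0.05 was Tpsab1, lower by limma at an unadjusted p of 0.0417 and an adjusted p of 0.419. Over all 22180 genes that setting gave 1498 higher and 1071 lower. Without SG-/- replicate 2, Cma1 was under 0.05 beside Cpa3, both higher, against 326 genes higher and 125 lower. For 1 member, Hdc, every SG-/- value was above every SG+/- value, where 2.84% of all genes were higher in this way and 3.19% lower (630 and 708 genes, or 972 and 673 with that centring). Of the 10 estimates, 8 were above 0, and their median was 0.17, against -0.01 over all genes, of which 46.3% were above 0. Without SG-/- replicate 3, 5 of the 10 estimates were above 0 and the median was 0.08, without SG-/- replicate 1 it was also 0.08, and with limma array weights 5 were above 0 and the median was -0.04. SG-/- replicates 1 and 3 carried the highest value of 9 members between them, 4 in replicate 1 and 5 in replicate 3. The lowest value of 3 members each was in SG-/- replicate 2, SG+/- replicate 1 and SG+/- replicate 2.

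**Figure D2:**
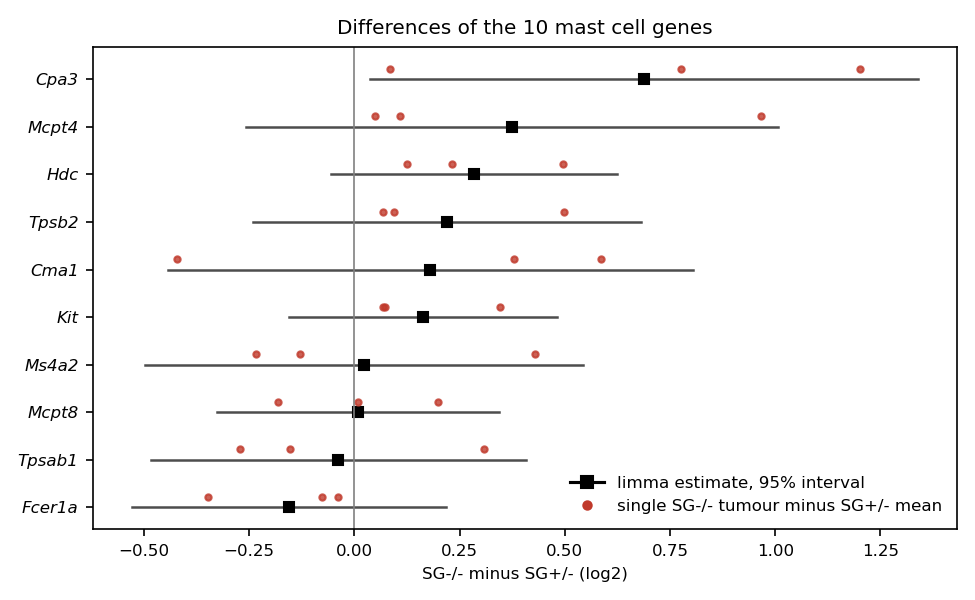
Difference SG-/- minus SG+/- on the log2 scale for each of the 10 genes, with the limma estimate as a square, its 95% confidence interval as a line and each SG-/- tumour minus the SG+/- mean as a red point. The Cpa3 interval, from 0.04 to 1.34, lies above 0, and the other 9 intervals include 0.

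Cpa3, the mast cell carboxypeptidase A that trims peptides and venom toxins, had the largest estimate. It read 6.64, 5.53 and 6.22 in SG-/- tumours, against 5.32, 5.59 and 5.41 in SG+/- tumours. SG-/- replicates 1 and 3 were above every SG+/- tumour, while SG-/- replicate 2 lay under SG+/- replicate 2, so the groups overlapped. They did not overlap with quantile normalization applied again, or with SG-/- replicate 2 or SG+/- replicate 2 left out. Cpa3 thus differed by 0.69, standard error 0.28, or 1.61-fold higher (limma unadjusted p = 0.0412, adjusted p = 1.00). Only 0.712% of all genes had a larger positive difference. Without SG-/- replicate 1 the difference was 0.43, with limma array weights it was 0.29, and with SG-/- replicate 2 left out it was 0.99. The unadjusted p of Cpa3 was under 0.05 in 6 of 14 fits, among them 1 of the 6 with a tumour left out, that without SG-/- replicate 2. Also counted are the main fit and that on the mean of a gene's probe sets. These 2 hold the same Cpa3 values, as Cpa3 had 1 probe set. The unadjusted p of Cpa3 was 0.0503 with arrays centred on brighter genes, 0.109 without moderation and 0.320 with array weights. Over all settings tried for Cpa3, the limma adjusted p ran from 0.687 to 1.00. Within its own array, the reading of SG-/- replicate 1 lay at percentile 96.6 of the silent genes, that of SG-/- replicate 3 at 59.5 and that of SG-/- replicate 2 at 62.6. In SG+/- replicates 1 to 3 the percentiles were 76.8, 48.1 and 47.6. Set against each array's silent genes, SG-/- replicate 3 was thus not high, and SG+/- replicate 1 was above it. With the silent mean of each array as a covariate in the fit, the difference was 0.69 (limma unadjusted p = 0.0327, adjusted p = 0.987).

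Mcpt4, Cma1 and Mcpt8 are serine proteases of the mast cell chymase family. Mcpt4, the main chymotrypsin-like enzyme of connective tissue mast cells, read 5.06, 4.20 and 4.14 in SG-/- tumours, against 4.34, 3.92 and 4.01 in SG+/- tumours. SG-/- replicate 1 was above all others and the other values of the genotypes overlapped. Mcpt4 differed by 0.37, standard error 0.27 (limma adjusted p = 1.00), and without SG-/- replicate 1 it was 0.08. Cma1, also known as Mcpt5, read 5.28, 4.48 and 5.48 in SG-/- tumours, against 4.83, 5.06 and 4.80 in SG+/- tumours. SG-/- tumours held both the highest and the lowest Cma1 value, and the difference of 0.18 (95% confidence interval -0.44 to 0.81) turned to -0.02 without SG-/- replicate 3 and to -0.23 with array weights. Mcpt8, a protease typical of mouse basophils, read 4.97, 4.78 and 5.17 in SG-/- tumours, against 4.90, 4.96 and 5.04 in SG+/- tumours. The groups overlapped, its values spanned 0.38, the narrowest range of the 10, and its difference of 0.01 had an interval from -0.33 to 0.34.

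These 3 genes lie in a run of 8 neighbouring protein-coding genes on chromosome 14 in the RefSeq order, Cma1, Cma2, Mcpt1, Mcpt2, Mcpt9, Mcpt4, Mcpt8 and Ctsg. Each of the 8 was measured, and 0 of them were above the silent level in any tumour, with values from 3.32 to 5.48. All 8 estimates were above 0, from 0.01 to 0.49, but 7 were with quantile normalization applied again, 3 with array weights and 3 without SG-/- replicate 3. The genes are related in sequence and lie side by side, so these are not independent readings, and whether the probe sets separate the relatives was not tested. Cma2 (0.49) and Mcpt9 (0.47), named here after their values were seen, did not overlap between genotypes, although both did with arrays centred on brighter genes, and Cma2 also with quantile normalization again. Without SG-/- replicate 3 they were 0.22 and 0.16. For both, SG-/- replicate 3 was the highest tumour, at 5.20 for Cma2 and 4.47 for Mcpt9, and that array also had the highest silent mean. With the silent mean of each array as a covariate the differences were 0.50 and 0.49 (limma unadjusted p = 0.0478 and 0.0351, adjusted p = 0.987 for both).

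The tryptases are trypsin-like proteases stored as heparin-bound tetramers. Tpsb2, also known as Mcpt6, read 5.39, 4.96 and 4.98 in SG-/- tumours, against 5.21, 4.69 and 4.76 in SG+/- tumours. The groups overlapped, with SG-/- replicate 1 the highest tumour, and the difference was 0.22 with an interval from -0.24 to 0.68. It was 0.08 with SG-/- replicate 1 left out. Leaving out SG+/- replicate 2 gave 0.12, and leaving out SG+/- replicate 1 gave 0.38. Tpsab1, also known as Mcpt7, read 5.32, 5.20 and 5.78 in SG-/- tumours, against 5.42, 5.33 and 5.66 in SG+/- tumours. SG-/- tumours held both the highest and the lowest Tpsab1 value. Its difference was -0.04 with an interval from -0.48 to 0.41, and its sign changed when arrays were centred on brighter genes or when SG-/- replicate 1, SG-/- replicate 2 or SG+/- replicate 3 was left out. RefSeq lists Tpsab1 as a transcribed pseudogene in this assembly, which is of C57BL/6J, and both tryptases sit on chromosome 17. Their sequences are similar, and the gene behind each signal is uncertain.

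The high-affinity IgE receptor arms mast cells and basophils. Its alpha chain Fcer1a, which binds IgE, read at percentiles 8.11 to 27.5 of the silent genes of its arrays. It read 3.55, 3.82 and 3.86 in SG-/- tumours, against 3.83, 3.75 and 4.12 in SG+/- tumours, so that the groups overlapped, and differed by -0.15 (95% confidence interval -0.53 to 0.22). Leaving out SG-/- replicate 1 gave -0.06, and leaving out SG+/- replicate 3 gave -0.04. In the RefSeq order its nearest protein-coding neighbours on chromosome 1 are the olfactory receptor genes Olfr1404 and Olfr418. The beta chain Ms4a2, which amplifies the signal, read 5.44, 5.54 and 6.10 in SG-/- tumours, against 5.39, 5.76 and 5.87 in SG+/- tumours. Its lowest readings were in SG+/- replicate 1 and SG-/- replicate 1, the arrays with the lowest silent mean, and its highest was in SG-/- replicate 3, the array with the highest. The groups overlapped, and its difference was 0.02 with an interval from -0.50 to 0.54. The gamma chain gene Fcer1g, which macrophages and other myeloid cells also use for their Fc receptors, was above the silent level in all 6 tumours at 9.49 ± 0.62 in SG-/- tumours, against 9.25 ± 0.21 in SG+/- tumours (SD, n = 3 per genotype).

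Hdc, histidine decarboxylase, makes histamine in mast cells, basophils and some myeloid cells. It read 5.51, 5.40 and 5.77 in SG-/- tumours, against 5.29, 5.18 and 5.35 in SG+/- tumours. The groups did not overlap, but the gap between the lowest SG-/- and the highest SG+/- reading was slight. Hdc differed by 0.28, standard error 0.14 (limma unadjusted p = 0.0881, adjusted p = 1.00), and it was 0.12 with array weights and 0.18 without SG-/- replicate 3. When arrays were centred on brighter genes the values overlapped. All 6 readings were below the silent level of their arrays, at percentiles from 37.0 to 81.4.

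Kit, the receptor for stem cell factor on which mast cells depend, was bright in every tumour. It read 11.74, 11.47 and 11.47 in SG-/- tumours, against 11.34, 11.38 and 11.48 in SG+/- tumours. SG-/- replicate 1 was highest, and SG+/- replicate 3 lay above the other SG-/- tumours, so the groups overlapped. Kit differed by 0.16, standard error 0.13, a 1.12-fold change whose 95% confidence interval ran from 0.90-fold to 1.40-fold (limma adjusted p = 1.00). Leaving out SG-/- replicate 1 gave a Kit difference of 0.07, and array weights gave 0.085. Kit stood 3.42 to 5.32 above the silent level of its arrays. Kit is also known in luminal progenitor cells of the mammary gland and in melanocytes. Of 6 luminal progenitor and luminal genes, 5 were above the silent level in every tumour and 5 had estimates above 0, with a list median of 0.11. Aldh1a3 had the highest of these, 0.75 (limma unadjusted p = 0.0534), and was named after its value was seen. The 1 estimate under 0 was that of Elf5, a regulator of alveolar cells, which read 9.68 ± 0.05 in SG-/- tumours, against 9.90 ± 0.43 in SG+/- tumours (SD, n = 3 per genotype). Of 5 melanocyte genes, 0 were above the silent level in any tumour, and Tyr, tyrosinase, read 4.62 ± 0.32 in SG-/- tumours, against 4.64 ± 0.42 in SG+/- tumours (SD, n = 3 per genotype). Which cells made the Kit signal was not tested. Its ligand gene Kitl was above the silent level in every tumour and differed by 0.06 (95% confidence interval -0.35 to 0.47).

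Over the 6 tumours, the genes most like Kit by Pearson correlation, among 2847 genes above the silent level that ranged over at least 0.5, were Sardh (0.98), Tubb6 (0.96), Hmgcs1 (0.96), Fdft1 (0.95) and Fcgrt (0.95). Their Spearman correlations with Kit were 0.77 to 0.94. Each was highest in SG-/- replicate 1, the tumour with the highest Kit reading, and 22 of the 2847 genes had a Pearson correlation over 0.9. These are descriptions over 6 points that share their arrays. By the same measure Cpa3 was most like Kit among the other members (0.83) and least like Fcer1a (-0.65). Genes of other lists were about as like Cpa3 as Kit was, among them Il33 (0.85), the macrophage gene Mrc1 (0.85) and the leukocyte gene Coro1a (0.83).

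Leukocyte genes were highest in the tumour with the highest Cpa3 and Kit readings. The 7 macrophage genes averaged 9.78, 9.25 and 8.81 in SG-/- tumours, against 8.85, 8.86 and 8.76 in SG+/- tumours, with 7 of 7 estimates above 0. The 5 general leukocyte genes averaged 8.67, 8.31 and 8.13 in SG-/- tumours, against 8.04, 7.93 and 7.84 in SG+/- tumours, with 5 of 5 estimates above 0. Of the 7 macrophage genes 6 were above the silent level in every tumour, but of the 5 leukocyte genes only 2 were. SG-/- replicate 1 was highest in both lists, as it was for Cpa3, Mcpt4, Tpsb2 and Kit. SG-/- replicate 2 was second in both lists and was low for Cpa3. Il33, an alarmin that acts on mast cells, read 9.98, 8.56 and 8.34 in SG-/- tumours, against 7.85, 8.26 and 7.91 in SG+/- tumours. Its groups did not overlap, and its difference was 0.96 with a standard error of 0.41 (limma unadjusted p = 0.0539, adjusted p = 1.00). Without SG-/- replicate 1 the Il33 difference was 0.45 and the macrophage list median was 0.16, against 0.39 with all tumours. Whether any of these measures accounts for the Cpa3 readings was not tested.

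**Figure D3:**
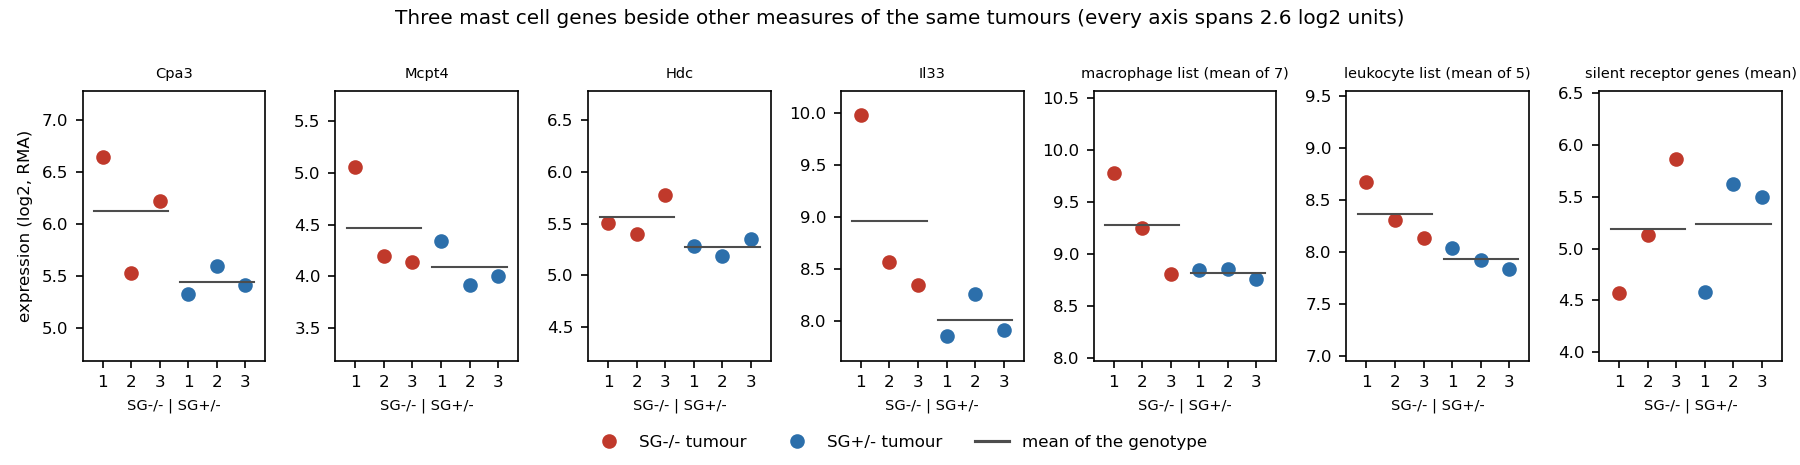
Log2 expression per tumour of Cpa3, Mcpt4, Hdc and Il33, of the means over the macrophage and leukocyte lists and of the mean of the silent genes, with SG-/- tumours left and SG+/- tumours right and the genotype mean as a line. SG-/- replicate 1 is highest in Cpa3, Mcpt4, Il33 and both lists, while it has the lowest silent mean.

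Among other genes of the mast cell programme, most granule proteases and surface genes were likewise above the silent level in no tumour. Of 9 other granule proteases and processing enzymes, 7 were above the silent level in no tumour, Mcpt1 of mucosal mast cells among them at 3.69 ± 0.13 in SG-/- tumours, against 3.62 ± 0.09 in SG+/- tumours (SD, n = 3 per genotype). The 2 that were bright, Ctsd and Ctsc, are lysosomal cathepsins that many cells make. Among 8 measured receptor and surface genes, 5 were above the silent level in no tumour and 1, the tetraspanin Cd63 of granules and endosomes, was above it in all. Il1rl1, the IL-33 receptor, had no probe set with its single symbol. Of 7 measured mediator enzymes, 2 were above the silent level in every tumour. Tph1, which starts serotonin synthesis, read 8.69 in SG-/- replicate 2 and at most 6.55 in the other 5 tumours, and its difference of 0.77 had an interval from -1.01 to 2.56 and was -0.18 without that tumour. The list medians were 0.07 for the proteases, -0.01 for the receptors and 0.30 for the mediator enzymes. With each tumour left out in turn they ran from -0.0028 to 0.14, from -0.07 to 0.07 and from 0.12 to 0.35. Of 9 measured genes of IgE receptor signalling, which other leukocytes share, 4 were above the silent level in every tumour, with a list median of 0.24. Of 7 transcription factors it was 3, with a median of -0.11, and of 9 growth factors and cytokines 2, with a median of 0.06. With each tumour left out these 3 medians ran from 0.06 to 0.32, from -0.22 to 0.06 and from -0.05 to 0.16. Of the 49 measured genes of these 6 lists, 0 had an unadjusted limma p under 0.05, where 2.11% of all genes did. Under most other settings the count was 0 to 3, where 327 to 1038 of all genes had such a p. It was 10 of 49 with array weights, against 2569 of 22180 genes. Without SG-/- replicate 3 it was 6 of 49, against 1200 of 22180 genes. In these 2 settings the share of the listed genes was above that of all genes. Why was not tested.

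Markers of neighbouring cell types were set beside these. Of 6 basophil genes, 4 were above the silent level in no tumour, and the 1 in all tumours was Itga2, an integrin that epithelial cells and platelets also carry. Itga2 was 1.02 higher in SG-/- tumours with a standard error of 0.31 (limma unadjusted p = 0.0140, adjusted p = 1.00) and did not overlap between genotypes. Of 8 neutrophil genes, 5 were above the silent level in no tumour, and 5 had estimates above 0, with a list median of 0.10. S100a8, a calprotectin chain, read 5.92 ± 0.21 in SG-/- tumours, against 6.19 ± 0.33 in SG+/- tumours (SD, n = 3 per genotype), while its partner chain S100a9 differed by 0.16 (limma unadjusted p = 0.549). The macrophage genes Fcgr1 and Adgre1 were 0.65 and 0.53 higher (limma unadjusted p = 0.0331 and 0.0446), and Mrc1, the mannose receptor, 0.82 higher (unadjusted p = 0.0763). Each had a limma adjusted p of 1.00, and without SG-/- replicate 1 they were 0.41, 0.31 and 0.32 higher. Among leukocyte genes Ptprc, which encodes CD45, was 0.42 higher (unadjusted p = 0.0562), Cd53 0.67 (0.0168) and Laptm5 0.52 (0.0132). Their limma adjusted p was 1.00 each, and Ptprc overlapped between genotypes. With SG-/- replicate 1 left out they were 0.26, 0.48 and 0.40 higher, and the leukocyte list median was 0.26, against 0.42 with all tumours.

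Most genes that build the granule proteoglycan, whose enzymes many cell types use, were above the silent level. Of 9 measured genes of the proteoglycan and heparin synthesis list, 7 were above the silent level in every tumour and 7 had estimates under 0, with a median of -0.12. Without SG-/- replicate 3 the median was 0.04, with 4 of 9 under 0, and with array weights it was 0.06, with 2 of 9 under 0. Ndst2, the sulfotransferase required for mast cell heparin, read 9.07, 9.03 and 8.38 in SG-/- tumours, against 8.99, 8.88 and 8.97 in SG+/- tumours. It differed by -0.12, and SG-/- replicate 3 was the lowest. Srgn, the core protein gene, was the 1 gene of the list with an unadjusted p under 0.05 and the 1 whose genotypes did not overlap. It was not among the 7 and was above the silent level in 1 tumour only.

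**Figure D4:**
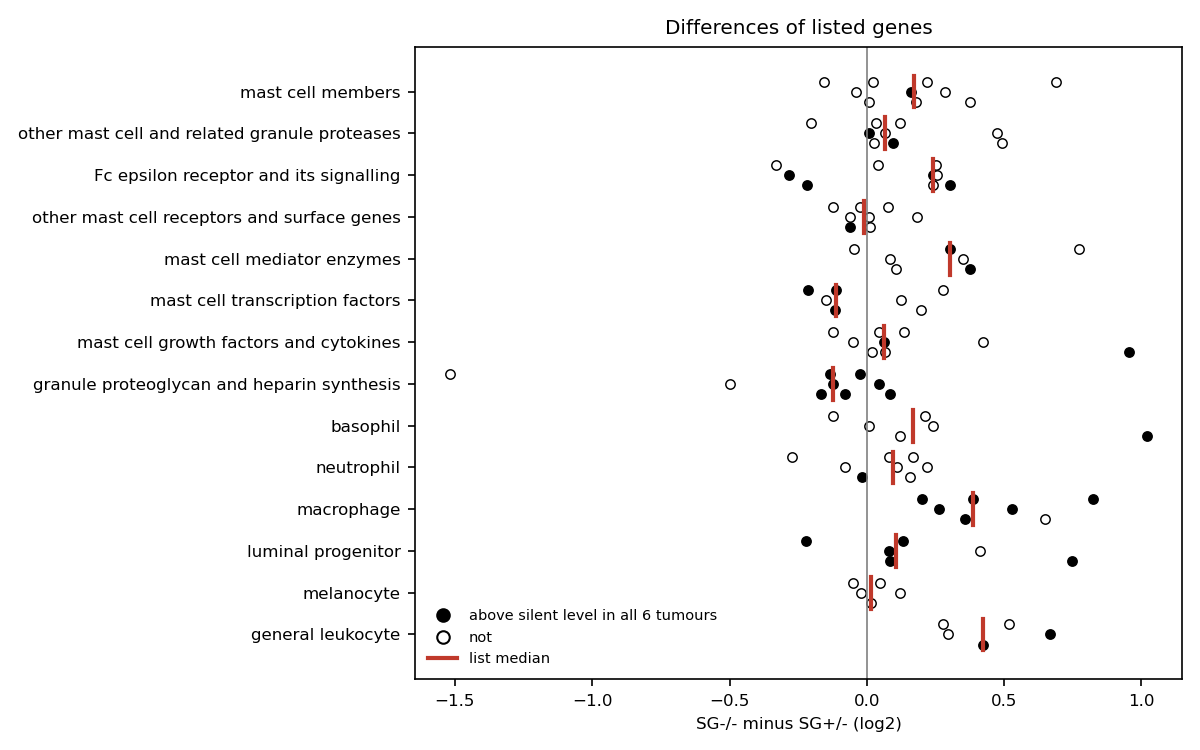
Difference SG-/- minus SG+/- on the log2 scale for every measured gene of the 14 lists, 1 point per gene, filled where the gene was above the silent level in all 6 tumours, with the list median as a red bar. In the mast cell set 1 of 10 points, Kit, is filled, and the macrophage and leukocyte medians, at 0.39 and 0.42, lie furthest to the right.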

How the data were processed

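The authors deposited RMA (robust multi-array average) summaries on the log2 scale, 1 per probe set, per the labels and the series description. Affymetrix Expression Console, limma and RMA are named in the submitters' processing notes, with no version. There were 33793 probe sets on each of 6 arrays, with 0 missing values, a range of 2.42 to 14.1 and array medians between 6.50 and 6.73. Precision is limited by the number of arrays. The array annotation names 1 symbol for 23521 probe sets, and where a gene had several the one with the highest mean was kept, leaving 22180 genes. All 10 members had an Entrez ID in RefSeq GRCm38.p6, used for names, gene order and promoters.

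Genotypes were compared over all genes as SG-/- minus SG+/- with lmFit and eBayes in limma 3.58.1 (R 4.3.3), two-sided, with Benjamini-Hochberg adjustment and a threshold of 0.05. The fit was tested on simulated data. Plots used matplotlib 3.10.9 (Python 3.11.15). Alternatives were a filter on dim genes (those averaging under 6.09, the 40th percentile of probe sets), quantile normalization again, centring on brighter genes, eBayes with trend and robust settings, array weights, the silent mean as a covariate, the mean of a gene's probe sets, a linear model without moderation, other silent levels (the 99th percentile of silent genes, the 40th of all probe sets) and leaving out each tumour. Members and lists were chosen with earlier results of these data known. Named genes are the members, the gene written first in each list, genes of a list with an unadjusted p under 0.05 or with no overlap and a difference of at least 0.5, and the 5 genes most like the members above the silent level. Others were named after their values were seen.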

Additional observations from a re-analysis of the deposited data

How the results depend on the processing

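No paired analysis was possible because the labels give the tumours no shared replicate numbers. The 10 member differences had 131 values under the 14 settings, of which 118 kept the direction and the side of the threshold and 13 changed sign. Part of the 118 could not change sign, so that count overstates how stable the signs are. Trend and robust settings, the fit without moderation and the dim filter leave a difference as it is. So does the mean of a gene's probe sets, as each of the 10 members had 1. None of the 131 values passed the limma adjustment over all genes, and the smallest adjusted p was 0.419. With array weights the differences of Cma1, Mcpt8 and Ms4a2 were -0.23, -0.17 and -0.20, and the median of the members was -0.041, against 0.17. Mcpt8 was -0.0065 with quantile normalization again, and Tpsab1 was 0.0009 with arrays centred on brighter genes. With each tumour left out in turn, Cma1 ran from -0.022 to 0.48, Mcpt8 from -0.087 to 0.10, Ms4a2 from -0.18 to 0.15 and Tpsab1 from -0.21 to 0.077. The signs of these 4 genes are thus not settled. The cause was not tested.

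Over all genes, 469 had an unadjusted p under 0.05. There were 2569 with array weights (the lowest weight, 0.20, fell on SG-/- replicate 3 and the highest, 4.95, on SG-/- replicate 2), and 1038 with the silent mean as a covariate. The range was 327 to 1200 with each tumour left out. The adjusted count of 0 was 1 with that covariate, namely Srgn (limma adjusted p = 0.0446), and 0 to 1 with a tumour left out. Genes without overlap numbered 1338, and 2767 to 4785 with a tumour left out, where fewer samples make a gap more frequent. The count of 1 member above the silent level in every tumour was the same under the 99th percentile of silent genes, the 40th percentile of all probe sets, the mean of all probe sets and with each tumour left out. The filter on dim genes kept 1 member, Kit, so the others have no value under it. For the other 9, readings near silence limit what a difference can show.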
